A study of Mus musculus with 24 samples.

Results

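The genes described here were 10 markers of Kupffer cells and other macrophages, read in whole liver: Clec4f, Cd5l, Vsig4, Marco, Timd4, C1qa, C1qb, C1qc, Cd68 and Cd163. They were chosen by name, as every gene probe of the array that carried a listed symbol, which gave 14 of the array's 56605 gene probes. All 10 genes passed the filter on dim signal and were tested among 21331 genes. Livers came from 24 male C57Bl/6J mice in 4 groups of 6, with 1 single-colour Agilent array per mouse. The hepatocytes of LWT mice expressed PPARα, a nuclear receptor that senses fatty acids, and those of LKO mice lacked it, as far as the series title gives the genotypes; the promoter that drove the deletion and the ages are not given in the sources used here. Mice of each genotype received by gavage either vehicle, 0.5% carboxymethyl cellulose in water, or CL316243, an agonist of the β3-adrenergic receptor, at 3 mg/kg in that vehicle. Dosing was at Zeitgeber time (hours after lights on) 10 and killing at 16, and all mice ate a standard diet freely. The comparisons ask how β3-adrenergic activation changed the liver, and whether hepatocyte PPARα altered that.

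Kupffer cells are the resident macrophages of the liver. They sit in the lumen of the sinusoids, held there by signals from endothelial cells, stellate cells and hepatocytes, and take up bacteria, complement-coated particles, dying cells and aged red cells from portal blood. In mice, Clec4f is expressed almost only by Kupffer cells, Timd4 marks those of embryonic origin, and Vsig4, Cd5l and Marco are rich in them. C1q, the recognition part of the classical complement pathway, is built from the products of C1qa, C1qb and C1qc and is made largely by macrophages. Cd68 encodes a lysosomal glycoprotein of most macrophages, and Cd163 the scavenger receptor for haemoglobin bound to haptoglobin, which glucocorticoids induce.

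A single 60-base oligonucleotide stands for each gene's level. Sequences are shown for the C1qa and C1qb probes, which represent their genes, and for the dimmer Cd163 probe, which does not. The sequence of the representative Cd163 probe is not printed. The genes of C1q lie close together on chromosome 4, and the probes for its A and B chains lie at chr4:136452409-136452468 and chr4:136436578-136436637 (mm9, minus strand), at base 444 and base 484 of their transcripts. The dimmer of the 2 Cd163 probes starts at base 2610 of its transcript, at chr6:124270436-124270495 (mm9, plus strand). The brighter Cd163 probe, which represents the gene, starts at base 4347, at chr6:124280484-124280543, so the pair reads separate stretches of 1 transcript.
C1qa probe: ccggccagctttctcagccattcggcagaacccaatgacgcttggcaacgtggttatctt
C1qb probe: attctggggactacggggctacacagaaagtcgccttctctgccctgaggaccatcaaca
Cd163 dimmer probe: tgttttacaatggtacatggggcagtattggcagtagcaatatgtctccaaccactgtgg
Between the representative probes of any pair of these genes, the longest shared run was 9 of 60 bases, over 45 pairs. The C1q chains, though related, were thus read by unlike oligonucleotides.

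Sequence before the start site was available for 9 of the 10 genes (RefSeq, build GRCm38.p6). It is shown for Cd163, which differed with CL316243 in LWT, and for Clec4f, C1qb and C1qc, which varied closely together from mouse to mouse. Cd5l and Timd4 varied about as closely with these and are not shown. Capitals mark, on either strand, the core of the PU.1 site (GAGGAA, or TTCCTC on the other strand), a half-site for MAF factors (TGCTGA or TCAGCA) and a half-site for the glucocorticoid receptor (TGTTCT or AGAACA). PU.1 and MAF factors are regulators of macrophage genes.
Cd163, chr6:124304401-124304650, plus strand: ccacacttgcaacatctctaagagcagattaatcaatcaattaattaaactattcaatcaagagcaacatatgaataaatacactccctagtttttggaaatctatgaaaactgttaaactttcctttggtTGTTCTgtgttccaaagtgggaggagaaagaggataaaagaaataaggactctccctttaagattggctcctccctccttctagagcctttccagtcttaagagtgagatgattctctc
Clec4f, chr6:83656117-83656366, minus strand: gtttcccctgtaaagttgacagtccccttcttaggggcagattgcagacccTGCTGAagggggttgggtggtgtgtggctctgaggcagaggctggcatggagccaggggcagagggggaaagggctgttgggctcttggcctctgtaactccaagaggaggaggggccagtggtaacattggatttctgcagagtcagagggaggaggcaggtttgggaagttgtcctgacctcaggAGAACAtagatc
C1qb, chr4:136886201-136886450, minus strand: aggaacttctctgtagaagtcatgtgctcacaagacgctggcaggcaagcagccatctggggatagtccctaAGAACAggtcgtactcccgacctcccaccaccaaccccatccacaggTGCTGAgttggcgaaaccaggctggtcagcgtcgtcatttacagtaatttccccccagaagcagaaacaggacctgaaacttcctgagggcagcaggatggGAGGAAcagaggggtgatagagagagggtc
C1qc, chr4:136892915-136893164, minus strand: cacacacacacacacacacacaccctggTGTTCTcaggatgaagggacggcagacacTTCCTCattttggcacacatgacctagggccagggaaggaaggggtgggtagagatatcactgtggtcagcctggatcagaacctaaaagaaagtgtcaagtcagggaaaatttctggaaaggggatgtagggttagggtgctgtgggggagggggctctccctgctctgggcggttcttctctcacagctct
In the 250 bases before the start, the PU.1 core was present in 6 of 9 members and in 23.3% of 32851 mouse promoters. The MAF half-site was present in 4 of 9 (16.1% of all), and the glucocorticoid receptor half-site in 4 of 9 (16.1% of all). The 4 members with the glucocorticoid receptor half-site are the 4 whose sequences are shown, so the other members lack it in this window. Cd163 held that half-site 119 bases before its start, and neither the PU.1 core nor the MAF half-site in this window. Each motif is short and common, so a match describes the sequence and not a bound site.

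The levels below are log2 of the processed probe signal minus log2 of the array's 75th percentile over gene probes. A level of 0 therefore equals that percentile, and levels of separate probes are not compared with each other. The representative probe of every member was well above background on all 24 arrays, so the label of the set was borne out as detectable macrophage transcript in each liver. Whole liver gives no cell counts: fewer cells of a type and less RNA per cell cannot be told apart. Across the arrays the 75th percentile of intensity was 397.4 to 577.7, between 26985 and 34202 gene probes were well above background, and no gene spot was saturated (0). Ppara, the targeted gene, was lower in LKO than in LWT without overlap under vehicle (4.81 to 5.18 against 5.46 to 5.93) and under CL316243 (3.06 to 4.85 against 5.70 to 6.42). The difference was called under CL316243 (log2 -1.91; limma, adjusted p = 3.6e-07) and not under vehicle (-0.68; adjusted p = 0.158); which part of the transcript its probe reads relative to the deletion was not tested.

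Of the 10 markers, Cd163 rose with CL316243 in LWT, and no other marker was called in any of the 5 comparisons. Calls were made by limma at a Benjamini-Hochberg adjusted p under 0.05 over all 21331 genes. In LWT, 1 of 10 members was higher and 0 lower, where 38.3% of all genes were called (18.9% higher and 19.4% lower). In LKO, 0 of 10 were called, where 40.3% of all genes were. The difference between the genotypes' responses was called for 0 of 10 members (5.41% of all genes, 2.17% in the positive and 3.24% in the negative direction). The genotype difference was called for 0 of 10 under vehicle (1.18% of all genes, 0.398% higher and 0.778% lower in LKO) and for 0 of 10 under CL316243 (15.9%, 7.74% higher and 8.17% lower). Over these 50 tests, an unadjusted p under 0.05 was found for the same 1 test, Cd163 in LWT. The members' median log2 difference with CL316243 was 0.12 in LWT and -0.02 in LKO, beside medians over all genes of 0.01 and 0.03. The sign of these medians rested on single mice: the LWT median was -0.01 without the vehicle mouse numbered 6 and -0.02 without the CL316243 mouse numbered 3, and the LKO median ranged from -0.10 to 0.08 as each mouse was left out, highest without the vehicle mouse numbered 3. In none of the 4 comparisons between groups did the mice of 1 group lie apart from those of the other for any member (0 of 10 each), whereas 20.4% and 20.8% of all genes did so with CL316243 in LWT and LKO, and 1.8% and 6.57% between genotypes under vehicle and CL316243.

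**Figure D1:**
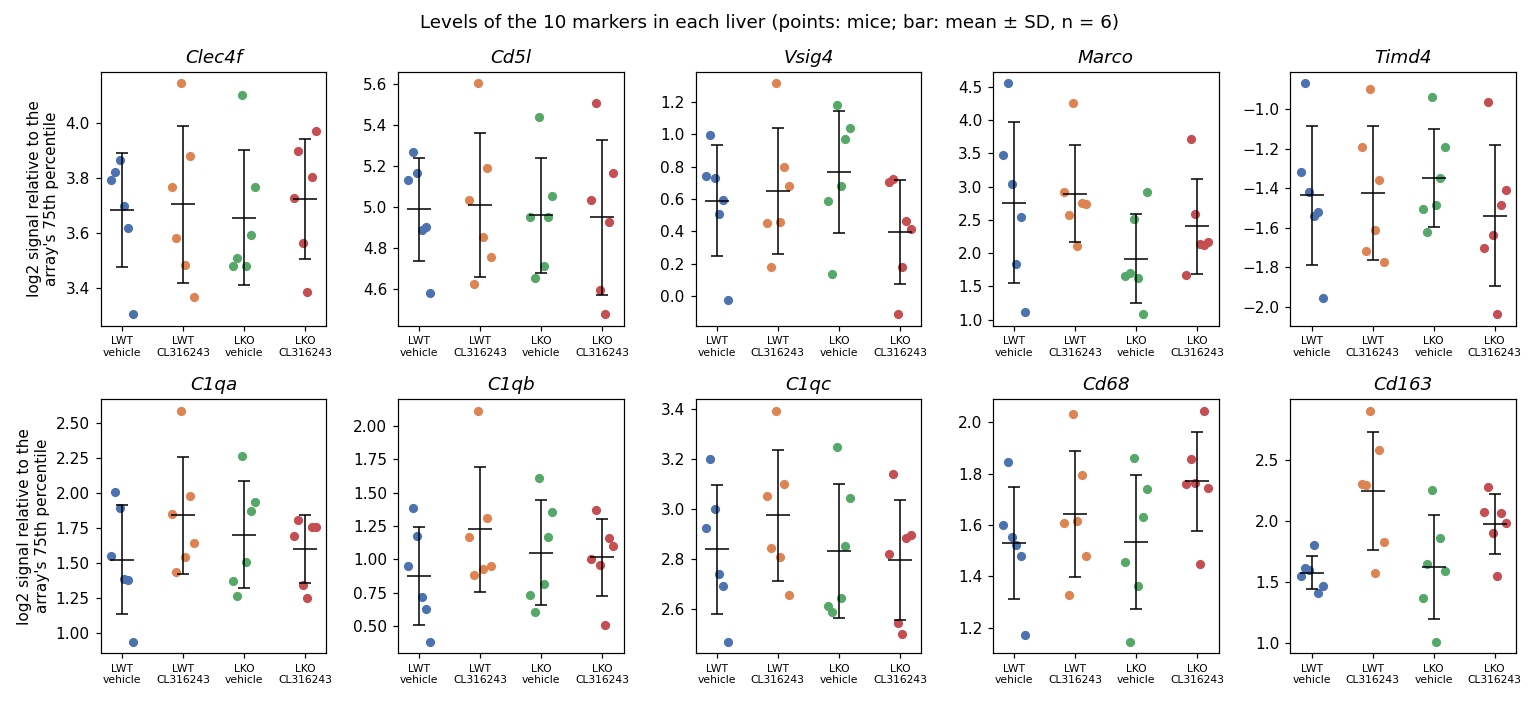
Level of the representative probe of each marker (log2, vertical axis with its own scale in each panel) in the 4 groups; points are mice, and bars the mean ± SD of 6. Groups overlap in every panel; in LWT, Cd163 spans 1.42 to 1.80 under vehicle and 1.58 to 2.90 under CL316243.

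Cd163, the haemoglobin-haptoglobin receptor, was higher with CL316243 in LWT. Its lowest, median and highest levels were 1.42, 1.58 and 1.80 under vehicle, and 1.58, 2.30 and 2.90 under CL316243. All 6 treated mice lay above the vehicle mean, and 1 of them fell within the vehicle range. The means were 1.58 ± 0.13 (SD, n = 6) and 2.25 ± 0.48 (SD, n = 6), a 1.59-fold difference (log2 0.67, SE 0.19; limma, adjusted p = 0.00893) with a 95% interval from 1.20-fold to 2.10-fold. The treated group was also the more spread of the pair. The second Cd163 probe, on a separate stretch of the transcript, was near the limit of detection and gave the same direction. It ran from -5.58 to -4.26 (median -4.70) under vehicle and from -4.51 to -2.67 (median -3.78) under CL316243, was well above background on 5 and 6 of 6 arrays, and differed by log2 1.02 (SE 0.30; limma over all kept probes, adjusted p = 0.0112).

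In LKO, Cd163 was not called. Its lowest, median and highest levels were 1.02, 1.62 and 2.25 under vehicle and 1.55, 2.02 and 2.28 under CL316243. The mean went from 1.62 ± 0.42 (SD, n = 6) to 1.97 ± 0.24 (SD, n = 6), with 5 of 6 treated mice above the vehicle mean. That is a log2 difference of 0.35 (SE 0.19; limma, adjusted p = 0.158), with an interval from 0.96-fold to 1.69-fold. The response was not shown to differ between genotypes: the interaction was -0.32 (95% interval -0.89 to 0.25; limma, adjusted p = 0.603), and for the second probe -0.82 (adjusted p = 0.314). By mean level the groups ran, from low to high, LWT vehicle, LKO vehicle, LKO CL316243 and LWT CL316243, and neighbours in that order overlapped. Of the pairs tested, only the difference between LWT vehicle and LWT CL316243 was called, and their ranges overlapped too.

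The Cd163 difference in LWT was uneven over the slides. On the 3 slides, each holding 2 mice of every group, it was 0.17, 1.01 and 0.83 (limma within a slide, adjusted p = 0.819, 0.0234 and 0.139). It was called when each of the 12 LWT mice was left out in turn, at 0.54 to 0.80 (adjusted p 0.00149 to 0.0286). Set against Clec4f on the same array, as a measure of the change beside a Kupffer-restricted gene, Cd163 was higher with CL316243 by 0.65 in LWT and by 0.28 in LKO, with overlap in both genotypes. Clec4f itself differed by 0.02 and 0.07, so the Cd163 difference was nearly as large on this relative scale.

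**Figure D2:**
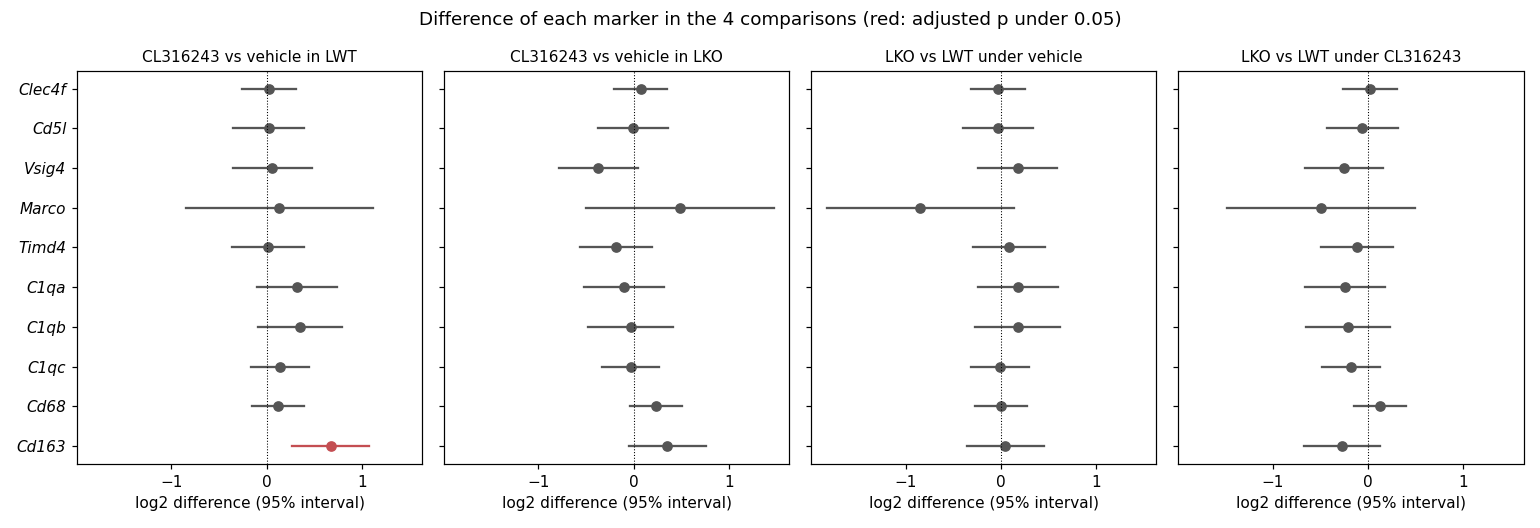
Log2 difference of each marker (points, with 95% intervals of the limma fit; horizontal axis) in the 4 comparisons named above the panels. Cd163 with CL316243 in LWT, at 0.67, is the only interval drawn as called (red), and Marco has the widest intervals.

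Among the Kupffer-restricted genes, Clec4f, a lectin receptor for galactose-bearing ligands, had nearly the same level in all groups. In LWT its lowest, median and highest levels were 3.31, 3.75 and 3.87 under vehicle and 3.37, 3.67 and 4.15 under CL316243. In LKO they were 3.48, 3.55 and 4.10 under vehicle and 3.39, 3.77 and 3.97 under CL316243. The 4 ranges largely coincided. Group means were between 3.66 and 3.73, and over the 4 comparisons the 95% intervals held differences between 0.81-fold and 1.28-fold (limma, adjusted p 0.71 to 0.997). A change of Clec4f beyond those bounds lay outside the intervals; a smaller change was not resolved with 6 mice a group.

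Cd5l encodes a secreted scavenger protein of macrophages, also called AIM. Its lowest, median and highest levels in LWT were 4.58, 5.02 and 5.26 under vehicle and 4.62, 4.94 and 5.60 under CL316243. In LKO they were 4.65, 4.95 and 5.44 under vehicle and 4.48, 4.98 and 5.50 under CL316243. Differences of Cd5l were between -0.06 and 0.02 over the 4 comparisons, with intervals from 0.74-fold to 1.31-fold (limma, adjusted p 0.879 to 0.997). Like Clec4f, it moved far less between groups than between mice of a group.

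Timd4 encodes a receptor for phosphatidylserine on dying cells. In LWT it ran from -1.95 to -0.87 (median -1.47) under vehicle and from -1.77 to -0.90 (median -1.48) under CL316243. The LKO ranges were -1.62 to -0.94 (median -1.42) under vehicle and -2.04 to -0.97 (median -1.56) under CL316243. The largest difference, with CL316243 in LKO, was -0.19 (SE 0.18; limma, adjusted p = 0.428), with 5 of 6 treated mice below the vehicle mean. It did not exceed the spread between mice.

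Vsig4 encodes a complement receptor, CRIg, that binds C3b-coated particles. In LKO its lowest, median and highest levels were 0.14, 0.83 and 1.18 under vehicle and -0.11, 0.44 and 0.72 under CL316243. All 6 treated mice lay below the vehicle mean, with overlap between the groups. The log2 difference was -0.37 (SE 0.20; limma, adjusted p = 0.146), with an interval from 0.58-fold to 1.03-fold. Leaving out the LKO vehicle mouse numbered 2, the lowest of its group, gave -0.50 (adjusted p = 0.0497), the only omission of a mouse that brought a further marker under the threshold. In LWT, Vsig4 was -0.03 to 0.99 (median 0.66) under vehicle and 0.18 to 1.31 (median 0.57) under CL316243, a difference of 0.06 (adjusted p = 0.854). The responses of Vsig4 were not shown to differ by genotype (interaction -0.43; limma, adjusted p = 0.464).

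None of the 3 C1q chains was called in any comparison, and in LWT all had positive differences with CL316243. C1qa in LWT had lowest, median and highest levels of 0.94, 1.47 and 2.01 under vehicle and 1.44, 1.75 and 2.59 under CL316243. C1qb had 0.38, 0.83 and 1.39, and 0.88, 1.06 and 2.11, in the same groups. The treated mice lay toward the upper end, with overlap, and the differences were 0.31 for C1qa (SE 0.20; limma, adjusted p = 0.236), 0.35 for C1qb (SE 0.21; adjusted p = 0.211) and 0.14 for C1qc (SE 0.15; adjusted p = 0.496). Without the CL316243 mouse numbered 3 they were 0.17, 0.17 and 0.05, and without the vehicle mouse numbered 6 those of C1qa and C1qc were 0.20 and 0.06. In LWT, C1qc ran from 2.47 to 3.20 (median 2.83) under vehicle and from 2.66 to 3.40 (median 2.95) under CL316243.

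In LKO the C1q chains had slightly negative differences, and none was called. C1qa was 1.27 to 2.27 (median 1.69) under vehicle and 1.25 to 1.81 (median 1.73) under CL316243, a difference of -0.10. The corresponding ranges of C1qb were 0.61 to 1.61 (median 0.99) and 0.51 to 1.37 (median 1.05), a difference of -0.03. C1qc differed by -0.03 as well, with 2.59 to 3.25 (median 2.75) and 2.5 to 3.14 (median 2.85). The interactions were -0.42 for C1qa, -0.38 for C1qb and -0.17 for C1qc (limma, adjusted p = 0.488, 0.56 and 0.734). A second C1qc probe, designed on another transcript, was not well above background on any of the 24 arrays (0).

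Marco, a scavenger receptor for bacteria and particles, varied more between mice than the other markers did. Under vehicle its lowest, median and highest levels were 1.12, 2.79 and 4.55 in LWT and 1.08, 1.68 and 2.92 in LKO. Under CL316243 they were 2.11, 2.75 and 4.27 in LWT and 1.67, 2.15 and 3.72 in LKO. Its highest mouse was 11.1-fold above its lowest, and its within-group SD of 0.86 was at the 97.5th percentile of all genes (median 0.23). The lower LKO mean under vehicle (-0.84, SE 0.47; 5 of 6 LKO mice below the LWT mean) was not called (limma, adjusted p = 0.723), and the interval, from -1.83 to 0.14 on the log2 scale, was too wide to separate a large fall from none; with single mice left out the difference ran from -1.17 to -0.49.

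Cd68, the lysosomal glycoprotein of macrophages in general, had 3 probes, all kept. The representative probe had lowest, median and highest levels in LWT of 1.17, 1.54 and 1.84 under vehicle and 1.33, 1.61 and 2.03 under CL316243. In LKO these were 1.15, 1.54 and 1.86 under vehicle and 1.45, 1.76 and 2.04 under CL316243. The difference with CL316243 was 0.11 in LWT (limma, adjusted p = 0.534) and 0.24 in LKO (adjusted p = 0.158; 5 of 6 treated mice above the vehicle mean). The 2 dimmer Cd68 probes gave 0.17 and 0.25 in LWT and 0.05 and -0.06 in LKO, none called, so the probes did not share a direction in LKO.

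What the markers did share was their rank among the mice of a group. Within groups, that is after each group's mean was taken out, the 45 pairs of markers correlated over the 24 mice with Pearson r from 0.38 to 0.97 (median 0.84) and Spearman's rho from 0.26 to 0.97 (median 0.83). C1qa and C1qb had the highest r, 0.97, and Marco and Cd163 the lowest, 0.38. With mice reordered within their groups 100000 times, the permutation p of r was 1e-05, the smallest these can give, for 21 of 45 pairs, and 0.0411 for Marco and Cd163, whose rho of 0.26 had p = 0.217; adjusted over the 45 pairs, 45 were under 0.05 by r and 44 by rho. Leaving out, for each pair, the 2 mice farthest from the median of the first gene of the pair gave a median r of 0.81. Extreme mice of the second gene alone were not left out. Over all 24 mice, taking out slide and row means besides group means left the median at 0.84.

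The same mice were high or low for nearly all markers. The LWT CL316243 mouse numbered 3 was the highest of its group for 10 of 10 markers, and the LKO vehicle mouse numbered 3 for 9. The mice numbered 2 in LWT vehicle and in LKO CL316243 were highest for 8 each. Lowest were the LWT vehicle mouse numbered 6, for 9 markers, the LKO CL316243 mouse numbered 4, for 8, and the LKO vehicle mouse numbered 2, for 7. In LWT CL316243 the mouse numbered 2 was lowest for 5. The mice named as highest lay on slides 1 and 2, and those named as lowest on slides 1, 2 and 3. Within slides 1, 2 and 3, the members' median genotype difference under vehicle was 0.53, -0.46 and 0.01, with 2 mice a group. The mean deviation of the markers was 0.01, 0.07 and -0.08 on the 3 slides, and 0.05 and -0.05 on the upper and lower rows. Across mice that mean deviation had an r of -0.19 with the array's 75th percentile and of 0.15 with its number of probes above background.

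**Figure D3:**
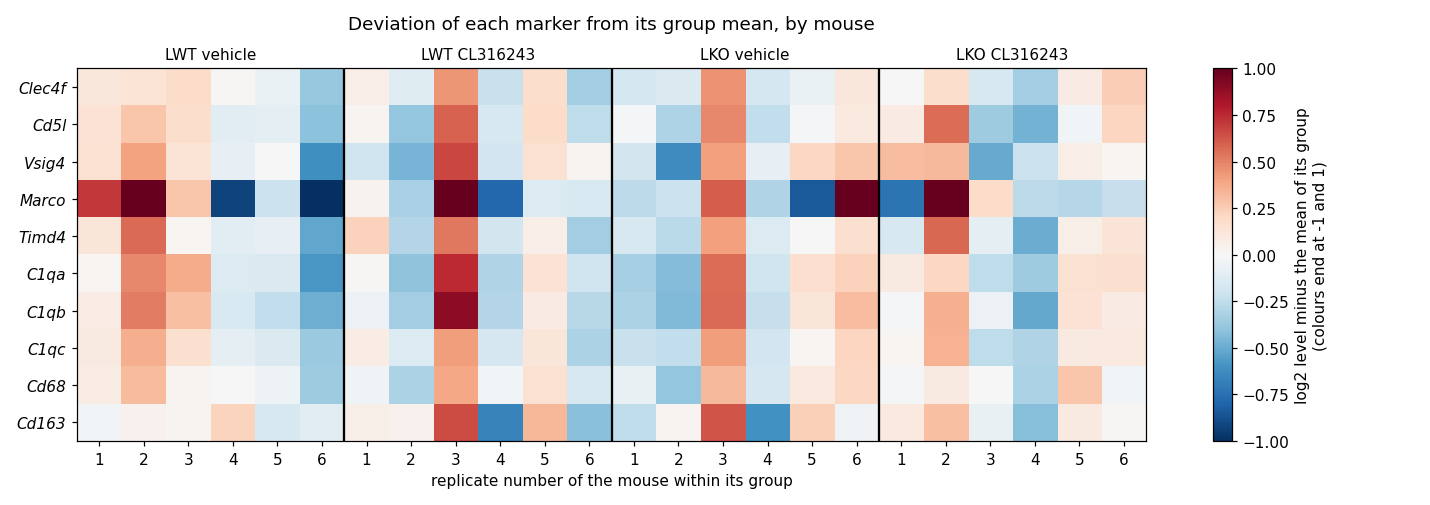
Level of each marker minus the mean of its group (colour, log2, ends at -1 and 1) for the 24 mice in 4 groups of 6, ordered by replicate number. Columns tend to be of a single colour: the LWT CL316243 mouse numbered 3 is above its group's mean for all 10 markers.

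Other genes of Kupffer cells and macrophages also tended to vary with Clec4f from mouse to mouse, with higher median r than the lists of other liver cells. The median r with Clec4f, group means taken out, was 0.86 for the other 9 markers (8 of them at 0.7 or more), 0.72 for 11 further Kupffer-enriched genes (7 of them) and 0.62 for 19 general macrophage genes (8 of them). Over all genes it was -0.03, with 160 of 21330 (0.75%) at 0.7 or more. It was -0.07 for 12 genes of recruited monocytes and lipid-associated macrophages, of which Lgals3 alone (0.86) was at 0.7 or more. Sinusoidal endothelial genes had a median of 0.09, stellate cell genes 0.21, hepatocyte genes 0.19 and neutrophil genes 0.31. Dendritic cell genes came nearest to the macrophage lists, at 0.41, with 2 of 7 at 0.7 or more (Cd74, 0.79, and H2-Aa, 0.76), and of the lymphocyte genes Nkg7 reached 0.78; these names were picked after their values were seen. These values describe 24 shared arrays and carry no test.

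The genes whose level over the 24 mice was most like that of Clec4f, by Pearson r, were C1qc (0.89) and Cd5l (0.89), both in the marker set, then Fermt3 (0.87), Inpp5d (0.85) and Tyrobp (0.85). For C1qa they were C1qb (0.97) and C1qc (0.93), also in the set, then Pira6 (0.92), Fermt3 (0.90) and Tyrobp (0.89). Fermt3 encodes the integrin activator kindlin-3 of blood cells and Tyrobp the signalling adaptor DAP12 of myeloid cells, so the nearest neighbours outside the set were leukocyte genes.

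**Figure D4:**
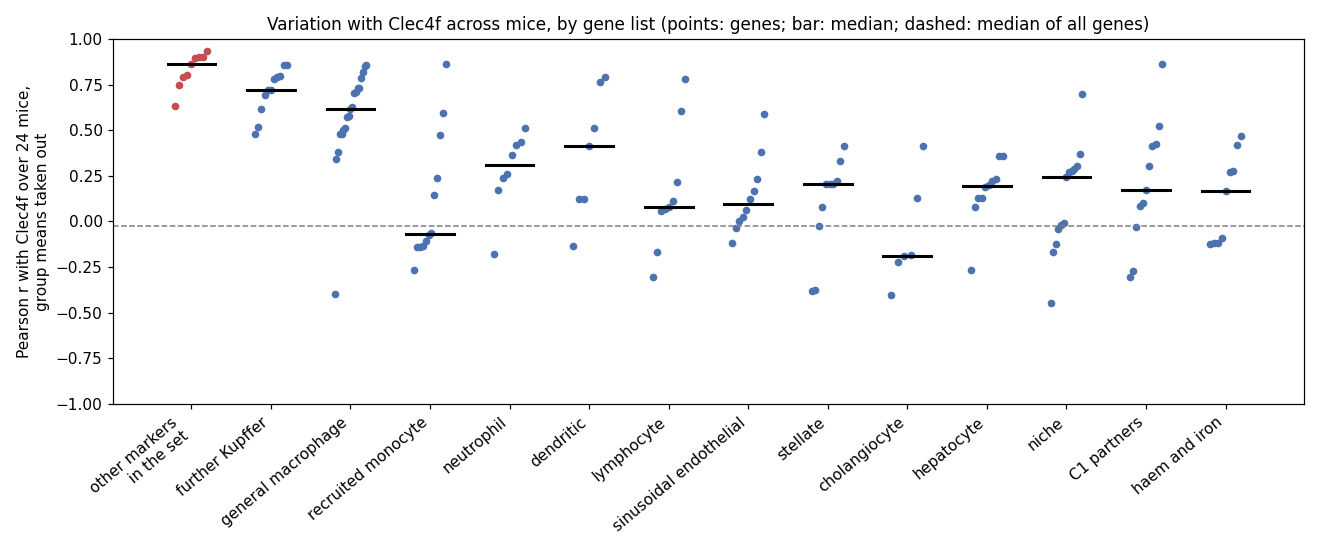
Pearson r of each gene with Clec4f over 24 mice after group means were taken out (vertical axis), for the other markers (red) and 13 gene lists (blue); black bars are medians and the dashed line is the median of all genes, -0.03. The other markers have a median of 0.86, and recruited monocyte genes one of -0.07.

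Lists of other myeloid cells are given beside the markers, to be read against the 38.3% and 40.3% of all genes called with CL316243 in LWT and LKO. By direction, 18.9% of all genes were higher and 19.4% lower in LWT, and 20.9% and 19.4% in LKO. Of 12 genes of recruited monocytes and lipid-associated macrophages, 5 were higher and 0 lower in each genotype. In LWT the largest were the tetraspanin Cd9 (log2 1.02), Plac8 (0.71) and the integrin Itgam (0.57); in LKO they were the chitinase-like Chil3 (1.97), Cd9 (1.42) and the clotting factor subunit F13a1 (1.08). In the LKO vehicle group 2 of 6 arrays had Chil3 well above background, so its fitted difference is set against a group largely at background. The summed linear level of this list ran from 17.3 to 22.7 under vehicle and from 23.4 to 38.5 under CL316243 in LWT, and from 17 to 22.2 and 27.7 to 38.2 in LKO, without overlap in either genotype; 30.6% of it was Itgam. Its mean log2 level overlapped in LWT (-1.09 to -0.71 under vehicle and -0.89 to -0.45 under CL316243) and did not in LKO (-1.05 to -0.90 and -0.59 to -0.22). Its members Ccr2 and Ly6c2, which define recruited monocytes, were detected above background on 5 or 6 arrays of every group and were not called; Gpnmb did not pass the filter. In LWT, 5 of these 12 genes were higher, as Cd163 was, and 7 were not called. The uncalled genes ran there from -1.09 (Cx3cr1) to 0.73 (Chil3). In LKO, 5 were also higher, while Cd163 was not called. The part of these genes in the Cd163 difference was not tested.

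Of 8 neutrophil genes, 3 were higher and 2 lower in LWT, and 6 higher and 0 lower in LKO. Of all genes, 18.9% were higher and 19.4% lower in LWT, and 20.9% and 19.4% in LKO. The interaction was called for 1 of the 8, Camp (0.42; limma, adjusted p = 0.0353), beside 5.41% of all genes. It was not called for Retnlg, Mmp8 or S100a8, so their responses were not shown to differ by genotype. The largest rises were those of Retnlg (2.06 in LWT, 3.48 in LKO), Mmp8 (2.55 in LKO) and the calprotectin subunit S100a8 (1.48 and 2.30), while Camp (-0.41) and Ly6g (-0.38) fell in LWT. The mean log2 level of the list ran in LWT from -1.50 to -0.76 under vehicle and from -1.57 to 0.31 under CL316243, and from -1.91 to -1.27 and -1.04 to 1.53 in LKO. In the LKO vehicle group 2 of 6 arrays had Mmp8 well above background, and 1 of 6 had Cxcr2, also counted among the 6. The sizes of their rises in LKO are therefore not well measured. Csf3r, counted among the 6 in LKO (0.26), made up 92.9% of the list's sum, and whether its bright probe also reads another transcript was not tested. Ngp did not pass the filter. The part of these cells' RNA in the marker values was not tested.

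Further Kupffer-enriched genes were a list written apart from the 10 markers. Of 11, 4 were higher and 0 lower in LWT, and 2 higher and 1 lower in LKO. Counted in either direction, these shares were no larger than those of all genes (38.3% and 40.3%). By direction, 18.9% of all genes were higher and 19.4% lower in LWT, and 20.9% and 19.4% in LKO. In LWT the list thus had a larger share higher than all genes had, and a smaller share lower. The largest rises in LWT were the ectoenzyme Cd38 (0.59), the transporter Slc16a9 (0.56) and the cytokine decoy Il18bp (0.46). In LKO, the fatty acid-binding protein Fabp7 (0.63) and Slc16a9 (0.54) were higher and the chemokine Ccl24 (-0.45) lower. Their median difference was 0.06 in LWT and 0.25 in LKO. Several of these genes are also expressed by other liver cells, so the list is less restricted than Clec4f or Timd4.

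Of 19 general macrophage genes, 2 were higher and 1 lower in LWT, and 1 higher and 2 lower in LKO. The endotoxin co-receptor Cd14 rose in LWT (2.19) and LKO (2.51), the Fc receptor Fcgr3 rose in LWT (0.92), Aif1 fell in LWT (-0.82) and LKO (-0.76), and the scavenger receptor Msr1 fell in LKO (-0.37). The other 16 in each genotype were not called. Under CL316243, 0 of 19 were higher and 2 lower in LKO than in LWT, where 15.9% of all genes were called. Among these was the efferocytosis receptor Mertk, lower in LKO (-0.51, limma, adjusted p = 0.026). The Mertk interaction was -0.46 and not called (limma, adjusted p = 0.264).

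Signals and transcription factors that maintain Kupffer cells were called in either direction. Of 13, 5 were higher and 3 lower in LWT, and 4 higher and 3 lower in LKO, where 38.3% and 40.3% of all genes were called. The interaction was called for 1 of the 13 in the positive direction and 0 in the negative, beside 5.41% of all genes. Id1 (1.95) and Id3 (1.91), targets of BMP and TGF-β signals, rose in LWT and the Notch ligand Dll4 fell (-1.20). In LKO Id3 (1.08) rose, and the Id1 difference was 0.69 and not called (limma, adjusted p = 0.0858). Dll4 (-0.89) and Nr1h3 (-0.49), which encodes the Kupffer cell factor LXRα, fell in LKO. Dll4 was well above background on 6 and 4 of 6 vehicle arrays but on 3 and 1 of 6 CL316243 arrays in LWT and LKO, so it passed the filter through the groups where it was high and the size of its fall is not well measured. These genes are also expressed by endothelial cells or hepatocytes, and which cells carried the change was not tested. Sinusoidal endothelial genes were called 2 higher and 3 lower of 10 in LWT and 1 higher and 3 lower in LKO, and stellate genes 2 higher and 1 lower of 10, and 3 higher and 0 lower.

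Partners of C1q and of CD163 were called in both directions, as 18.9% of all genes were higher and 19.4% lower in LWT, and 20.9% and 19.4% in LKO. For C1q, of 11 partners, regulators and complement fragment receptors, 2 were higher and 3 lower in LWT and 4 higher and 2 lower in LKO. Cd93 rose in LWT (1.21) and LKO (1.78), as did the C5a receptor C5ar1 (1.13 and 0.89). C5ar1 was well above background on 2 of 6 vehicle and 4 of 6 CL316243 arrays of each genotype. It therefore passed the filter only through the CL316243 groups, where it was high. Its rise, counted among the higher genes of both genotypes, was set against groups largely at background, and its size is not well measured. The protease C1s (-0.25), its relative C1rl (-0.44) and Calr (-0.28) fell in LWT. In LKO, C1rb (-0.55) and C1rl (-0.47) fell, and Calr rose (0.27). The interaction was called for 1 of these 11 genes, in the positive direction, beside 5.41% of all genes. For Cd163, of 9 genes of haem and iron handling, 2 were higher and 2 lower in LWT and 5 higher and 2 lower in LKO. Haptoglobin (Hp, 0.62 in LWT and 0.67 in LKO), whose complex with haemoglobin is the ligand of CD163, and haemopexin (Hpx, 0.56 and 0.88) rose in each genotype. The haem-degrading enzyme Hmox1 rose in LKO (2.46) and was higher in LKO than in LWT under CL316243 (1.54), where 15.9% of all genes were called. Its difference in LWT was 0.83 and not called (limma, adjusted p = 0.09). The iron exporter Slc40a1 fell in LWT (-0.99), and its difference in LKO was -0.31 and not called. The difference between the genotypes' responses was called for 0 of these 9 genes, beside 5.41% of all genes.

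**Figure D5:**
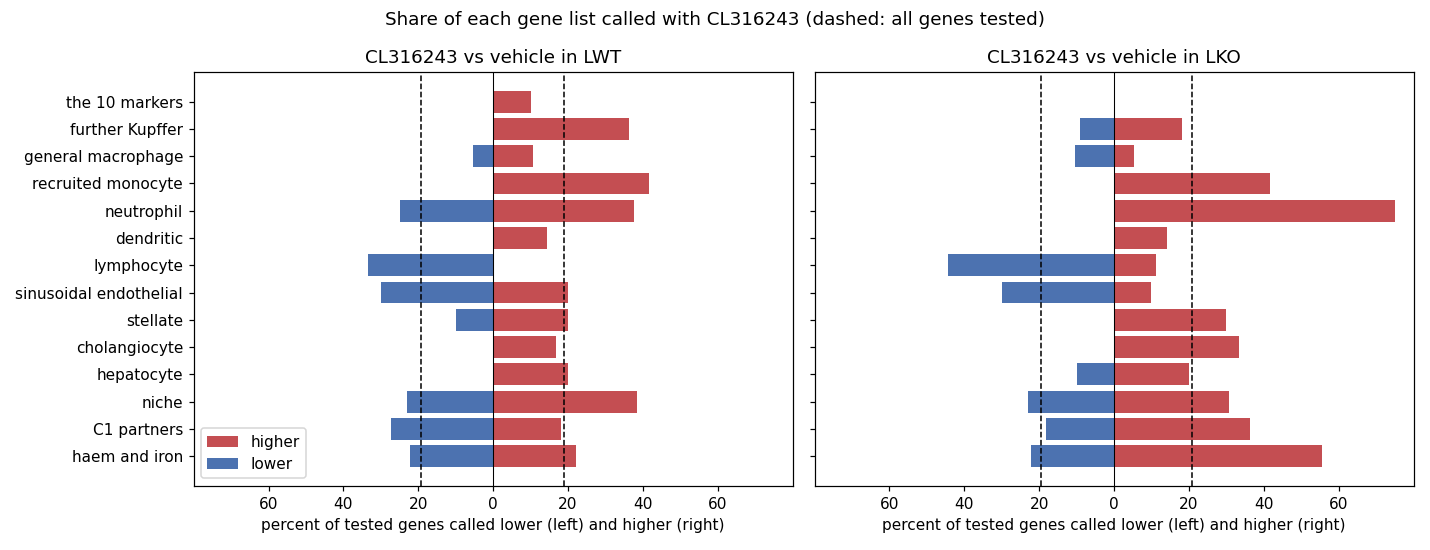
Percent of tested genes of the 10 markers and of 13 gene lists that were called higher (right, red) or lower (left, blue) with CL316243 in LWT and in LKO; dashed lines give the percent of all genes, 18.9 and 19.4 in LWT and 20.9 and 19.4 in LKO. The markers have 1 of 10 called in LWT and 0 of 10 in LKO.

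The remaining lists bear on what else the livers held. Lymphocyte genes had 0 higher and 3 lower of 9 in LWT and 1 higher and 4 lower in LKO, led by the B cell gene Ms4a1 (-1.45 and -1.67); Cd8a and Cd79a did not pass the filter, and Cd79a was above background on 0 arrays. Cd4, counted among the 4 lower in LKO (-0.35), made up 87.2% of that list's sum, and what its bright probe reads was likewise not tested. Dendritic cell genes had 1 of 7 higher in each genotype (Siglech, 0.20 and 0.24, a bright probe that made up 96.2% of the list's sum and whose transcript was not tested; Xcr1 did not pass the filter), and cholangiocyte genes 1 of 6 in LWT and 2 in LKO (Sox9, 1.47 and 2.18). Hepatocyte genes had 2 of 10 higher in each genotype and 1 lower in LKO, and all 10 were well above background on every array. None of these lists had its part in the marker values tested.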

How the data were processed

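Liver RNA of 24 male mice was extracted with TRIzol, and 200 ng per mouse was labelled with Cy3 for Agilent arrays, per the labels' protocols. Per the file headers, the deposited spot intensities are Agilent Feature Extraction output (version 10.10.1.1), background-subtracted and linear. The series table of log2 values deposited by the authors matched the quantile-normalized median signal (99.58% of values within 0.1) and served as an alternative.

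Spots flagged as outliers were removed, spots of a probe were averaged, and log2 of the array's 75th percentile over gene probes was subtracted. Probes were kept (32037) if 4 or more of 6 arrays in some group were well above background and every group had 3 values. The brightest kept probe represented its gene, giving 21331 genes. Missing values were not imputed, and no marker value was missing. Probe positions are those of the array annotation, mm9.

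Groups came from the genotype and treatment labels. One mean per group was fitted to all 24 arrays with limma 3.58.1 in R 4.3.3 with the package data.table in version 1.17.8, with 5 comparisons, each adjusted by Benjamini-Hochberg over all genes; the steps were tested on simulated data. The arrays' number, 6 mice a group, limits the precision (median SE of a difference 0.13). The labels number the mice but do not say that a number joins mice across groups. The text names all 10 markers, up to 3 called genes a direction in each gene list, and the 5 genes most correlated with Clec4f and with C1qa; some genes that this rule picks are not reported here. The 10 markers and the gene lists were chosen with earlier results of these data known. The pairwise correlations and the differences from Clec4f were added after the data had been seen. Alternatives were another background correction, quantile normalization, the series table, no filter, other probe rules, slide, slide and row, replicate number as a block, only the groups compared, and each mouse left out. Promoter sequences are RefSeq's, build GRCm38.p6; none was found for C1qa.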

Additional observations from a re-analysis of the deposited data

Results flagged for a closer look

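In 52 groups of 6 mice, taken over the markers' kept probes, the highest or lowest mouse was tested for its gap to the next (Dixon's ratio at its 95% critical value), and 2 groups passed it. Chance gives about 1 in 20. For C1qb, the LWT CL316243 mouse numbered 3 stood at 2.1143, with the nearest mouse at 1.3079 and the gap 0.6526 of the range. For the dimmer Cd163 probe, the LKO vehicle mouse numbered 3 stood at -3.4254, with the nearest at -4.2939 and the gap 0.806 of the range; that probe was well above background on 4 of 6 arrays of the group. Each of these mice was the highest of its group for at least 9 of the 10 markers.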

How the results depend on the processing

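Over the 10 alternatives that kept all mice (9 for the interaction), 490 of 490 values of single markers kept their side of the threshold, and 9 uncalled values changed sign. Cd163 in LWT remained called in all 10, at log2 0.62 to 0.84 (limma, adjusted p 0.00378 to 0.0187). With each mouse left out in turn, 719 of 720 kept their side; the exception was Vsig4 in LKO without the LKO vehicle mouse numbered 2, so that members called lower in LKO ranged from 0 to 1. Counts over all genes moved by more than 1.5 times in 5 cases, and the cause was not tested. Without the filter, the interaction gave 664 in place of 1153 and the genotype difference under vehicle 167 in place of 251. With every kept probe in the fit, CL316243 in LKO gave 13125 in place of 8596 and the interaction 1908 in place of 1153; the unit there is probes. With only the groups compared in the fit, the genotype difference under CL316243 gave 2203 in place of 3393. Within a slide, Cd163 in LWT was not called on 2 of 3 slides, which hold 2 mice a group. Replicate numbers were not shown to pair the mice: 36 same-numbered pairs had correlations of -0.18 to 0.42, 9 of them above 0.1, and 11 were the best match of a mouse. With replicate number as a block, Cd163 in LWT was 0.67 (limma, adjusted p = 0.00378) and no marker's call changed. With 6 mice a group, the median SE of a difference was 0.13, and for Marco 0.47.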
